A study of Mus musculus with 18 samples.

Results

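The genes Apol11b, Adam30, Kirrel3, Dnajb13, Steap4, Tgm1, Cdh23, Gpr27 and Acod1, were followed across mouse neutrophils of 6 tissues. They are 9 of the 32328 genes in the table, and they were chosen on their level in the 3 Blood libraries, which had been read as the highest. Their standing in Blood is therefore given as a description, with no test, and tests are given only for differences among the other tissues. The series compared neutrophils, the phagocytes that arise in bone marrow and circulate before entering tissues, between Blood, bone marrow (BM), Spleen, Lung, Intestine (colon) and Skin (ear), with 3 libraries each. All groups came from C57BL/6 mice of 8 to 12 weeks, with no allele, agent or treatment named, and cells were sorted by CD45, CD11b, Ly6G and DAPI.  Nothing in the labels ties the 3 libraries of a tissue to different mice. The p-values below therefore reflect variation among libraries, which may be technical.

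The genes belong to unlike families. Steap4 is a membrane metalloreductase that passes electrons to iron and copper ions and is induced by inflammatory cytokines. Acod1 makes itaconate from cis-aconitate in activated macrophages and neutrophils, and itaconate restrains succinate dehydrogenase and activates Nrf2. Tgm1 crosslinks proteins into the cornified envelope of keratinocytes, Cdh23 forms the tip links of inner ear hair cells, Kirrel3 is a nephrin-like adhesion protein of neurons, and Dnajb13 sits in the radial spokes of motile cilia and sperm tails. Adam30 is a membrane metalloprotease of the ADAM family known from testis, Gpr27 is an orphan receptor of the SREB group known from brain, and Apol11b belongs to the apolipoprotein L family.

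The values are scaled counts: estimated reads per gene scaled to 1000000 of an effective library, not divided by gene length. Libraries held 2.94e+06 (Lung replicate 1) to 1.21e+07 (Spleen replicate 2) estimated counts, and 1 count was worth 0.0727 to 0.433 scaled counts. The summed scaled count of 10 neutrophil markers was 29254 to 30204 in Blood and 45490 to 59971 in BM. It was 10440 to 14476 in Spleen and 5033 to 15876 in Lung, with 748 to 1129 in Intestine and 971 to 16606 in Skin. Intestine therefore went against its label as a neutrophil sample, with 7 fibroblast and muscle markers summing to 5521 to 11266 there against 47.6 to 66.2 in Blood. Skin replicate 1 stood apart as well, with epithelial markers at 10543. Skin libraries also spread more around their mean (1.61 to 2.04 log2 units, residual) than the other 15 (0.655 to 1.20). Fewer neutrophils in a sort and less RNA per neutrophil cannot be told apart in such libraries.

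The level in Blood was the highest of the 6 tissue means for 7 of the 9 genes, against 14.4% of the 16157 tested genes. For 6 of them, Apol11b, Adam30, Kirrel3, Dnajb13, Steap4 and Tgm1, all 3 Blood libraries lay above all 15 others, which held for 1.49% of tested genes. The choice of the genes fixed these counts, and nothing is read from them. Cdh23 was highest in Blood by its mean and overlapped Spleen. The data went against the description as genes highest in Blood for Gpr27, which was highest in BM, and for Acod1, which was highest in Skin and Lung. Among 5057 protein-coding genes with a Blood mean of at least 20, the ratio of Blood to the next tissue put Apol11b at rank 3, Steap4 at 4, Dnajb13 at 7, Tgm1 at 12, Adam30 at 15, Kirrel3 at 20, Cdh23 at 265, Gpr27 at 4850 and Acod1 at 4861. All 9 passed the filter for testing, 3 or more libraries at 1 or above. Without the Blood libraries 8 would have passed, Apol11b being the exception.

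**Figure D1:**
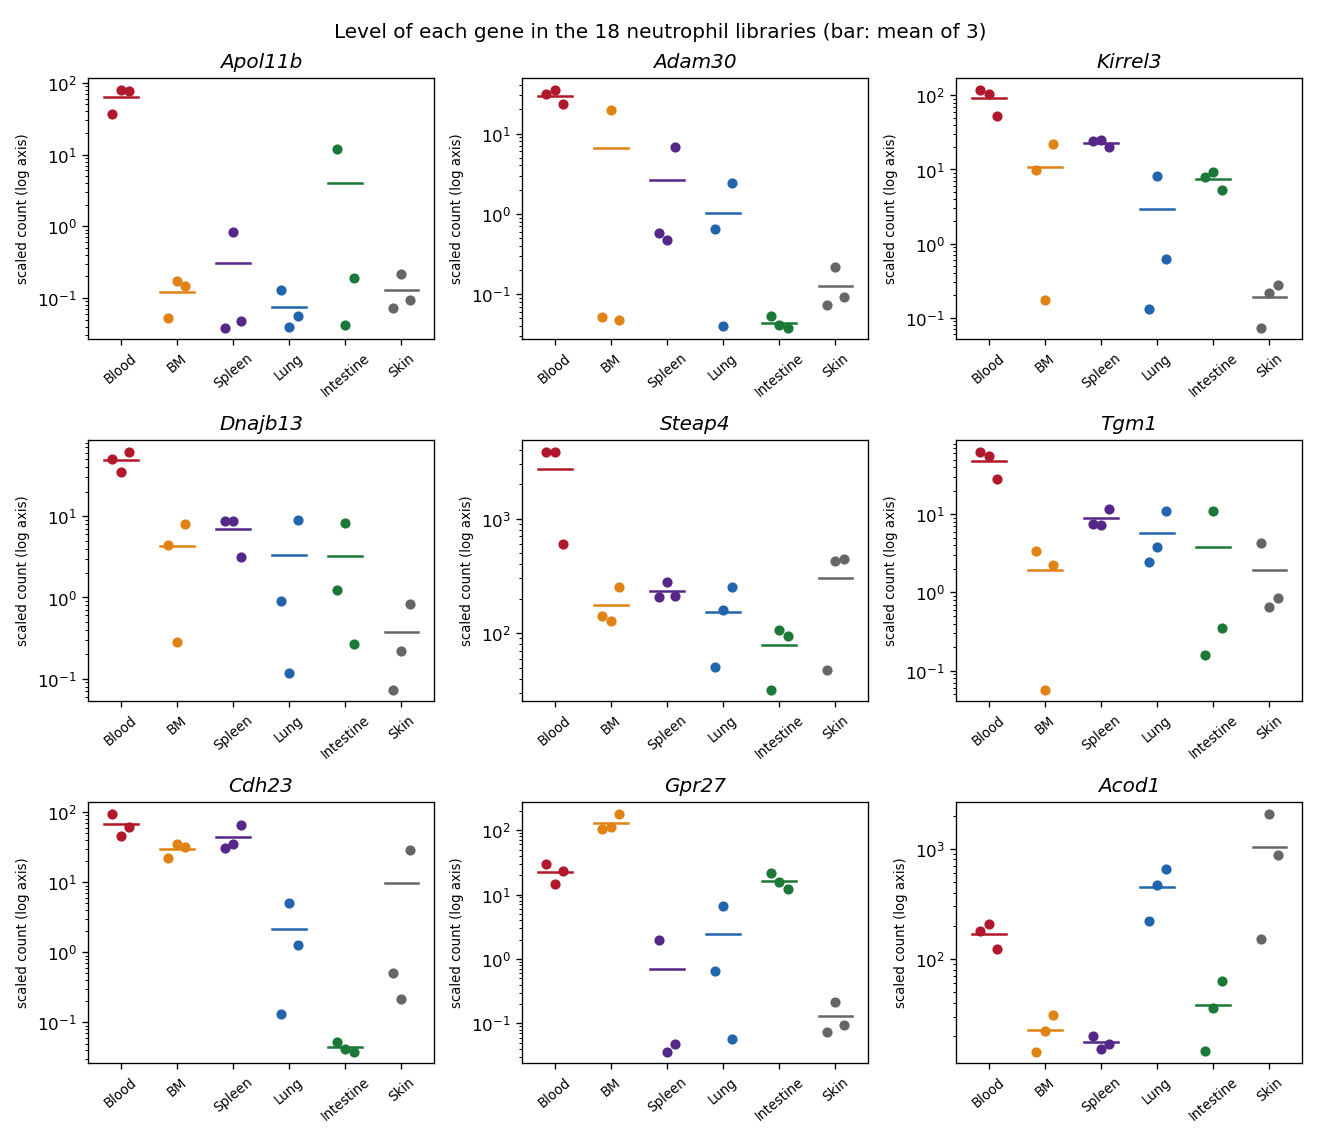
Scaled counts of the 9 genes in each of the 18 libraries, on a log axis, with a point per library and a bar at the mean of 3. In 6 panels the 3 Blood points lie above all others, while Gpr27 is highest in BM (103 to 176) and Acod1 in Skin (152 to 2052).

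Promoter letters are shown for 4 of the genes, 3 because they share the STAT letters described below and Acod1 because it carries TATA letters close to its start. RefSeq windows on GRCm38.p6 were matched for 6 of the 9 genes by symbol. Each line gives the 250 bases before the start, 5′ to 3′ on the gene's strand, and capitals mark matches, on either strand, to any of 11 motifs searched (spelled out below, NF-kB by name only). The regions are chr5:7960222-7960471 on the plus strand for Steap4, chr15:77643287-77643536 on the minus strand for Apol11b, chr14:55713493-55713742 on the minus strand for Tgm1 (the upstream of its 2 windows) and chr14:103046762-103047011 on the plus strand for Acod1.
Steap4: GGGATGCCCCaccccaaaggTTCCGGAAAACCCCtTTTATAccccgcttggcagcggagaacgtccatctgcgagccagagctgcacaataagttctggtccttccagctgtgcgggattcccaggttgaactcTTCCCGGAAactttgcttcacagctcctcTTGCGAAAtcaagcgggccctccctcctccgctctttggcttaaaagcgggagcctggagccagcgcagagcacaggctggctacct
Apol11b: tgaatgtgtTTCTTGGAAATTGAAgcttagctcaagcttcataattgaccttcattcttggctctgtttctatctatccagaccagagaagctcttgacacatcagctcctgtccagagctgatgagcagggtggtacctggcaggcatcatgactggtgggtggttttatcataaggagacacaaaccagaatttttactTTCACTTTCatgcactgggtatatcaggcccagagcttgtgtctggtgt
Tgm1: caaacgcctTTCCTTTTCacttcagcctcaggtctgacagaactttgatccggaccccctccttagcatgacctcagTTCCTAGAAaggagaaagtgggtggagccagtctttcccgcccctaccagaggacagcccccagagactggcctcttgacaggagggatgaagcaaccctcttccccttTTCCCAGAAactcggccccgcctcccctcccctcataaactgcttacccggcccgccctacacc
Acod1: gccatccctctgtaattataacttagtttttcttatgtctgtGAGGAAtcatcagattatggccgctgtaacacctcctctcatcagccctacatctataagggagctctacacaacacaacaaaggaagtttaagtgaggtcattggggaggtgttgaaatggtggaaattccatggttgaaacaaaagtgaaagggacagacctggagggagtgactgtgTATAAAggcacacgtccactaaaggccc

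The letters TTCNNNGAA read the same on both strands and are those bound by STAT factors. The windows searched held 300 bases, 250 before and 50 after the start. Of the 7 windows of the 6 genes, 3 held these letters, against 8.30% of 32851 mouse windows. They were those of Steap4 and Apol11b and the upstream window of Tgm1. Positions count from the start, with negative ones upstream. The match began at -116 in Steap4, at -241 in Apol11b, and at -173 and -64 in Tgm1. IRF letters (GAAANNGAA) began at -235 and -49 in Apol11b and at -241 in Tgm1, and were in 8.56% of windows. The IRF match at -235 in Apol11b overlaps its STAT match. C/EBP letters (TTNNGNAA) began at -230 and -87 in Steap4, also occurred in the other Tgm1 window, and were in 40.7% of windows, and NF-kB letters began at -250 and -226 in Steap4 and were in 4.51%. At -230 and -226 the C/EBP and NF-kB matches of Steap4 overlap. TATA letters (TATAAA) began at -28 in Acod1, and on the other strand at -215 in Steap4, and were in 13.6% of windows. PU.1 letters (GAGGAA) were in Acod1, at -208, and in the windows of Cdh23 and Dnajb13, and in 28.3% of windows. AP-1 letters (TGANTCA) had no match in the windows of the 6 genes and were in 7.81% of windows. The same held for the letters of CRE (TGACGTCA, 1.79% of windows). It held for the E-box (CACGTG, 7.15%). GATA letters (AGATAA, 11.2%) had no match there either. RUNX letters (TGTGGT) were downstream of the start in Apol11b and at -8 in Dnajb13, against 16.8% of windows. The Apol11b window held 0 CpG and the Steap4 window 16, with a median of 7 over all windows. A match describes letters and is not a binding site.

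Steap4 was by far the most abundant of the 9 per kilobase of exon in Blood, at 861 scaled counts per kilobase, followed by Acod1 at 64.4, Apol11b at 26.1, Dnajb13 at 17.8, Tgm1 at 15.3, Kirrel3 at 14.2, Gpr27 at 9.39, Adam30 at 8.40 and Cdh23 at 3.96. Steap4 (ENSMUSG00000012428, chr5:7960457-7982213, 5 exons) had 3771, 3785 and 595 scaled counts in Blood replicates 1, 2 and 3. It had 141, 128 and 255 in the BM libraries, and Spleen had 207, 280 and 211. Lung had 50.6, 159 and 253, Intestine 32.2, 107 and 95.1, and Skin 48.0, 428 and 439. Every Blood library was higher than every other library, the narrowest gap being that of Blood replicate 3 over Skin replicate 3. The mean was 2717 ± 1838 in Blood and 305 ± 223 in Skin, the next tissue (SD, n = 3, as for all means here), an 8.91-fold ratio of means. Blood was 11.7-fold higher than Spleen, 15.6-fold higher than BM, 17.6-fold higher than Lung and 34.7-fold higher than Intestine. Outside Blood the 5 tissues overlapped, and limma's F test among them did not pass (adjusted p = 0.357, Benjamini-Hochberg over all tested genes).

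Blood replicate 3 differed from the other Blood libraries at Steap4 more than at most genes. Its Steap4 value was 0.158 of the mean of replicates 1 and 2. Over 5211 genes with a Blood mean of at least 20 this ratio had a median of 0.980, a 5th percentile of 0.515 and a 95th of 1.78. Kirrel3, at 0.465, and Tgm1, at 0.476, were also under the 5th percentile. The ratio was 0.636 for Acod1, 0.713 for Adam30, 0.895 for Cdh23, 1.07 for Gpr27, 1.33 for Apol11b and 1.44 for Dnajb13. Thus 3 of the genes were low in the same Blood library while others were not. The 3 protein-coding genes most like Steap4 over the 18 libraries, by Pearson r of log2(value + 1), were Wfdc17 (0.93), Ifitm1 (0.93) and Tgfbi (0.91), and over the 15 libraries outside Blood r was 0.85, 0.81 and 0.86. Such nearest genes depend on the measure. By Spearman's rho the 3 nearest shared 0 or 1 with those by Pearson r for each of the 9 genes, and over the 15 libraries outside Blood they shared 0 for all but Cdh23 and Gpr27.

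Apol11b was at or near 0 in 14 of the 15 libraries outside Blood. Apol11b (ENSMUSG00000091694, chr15:77633946-77643286, 6 merged exons) had 36.9, 78.9 and 77.1 scaled counts in Blood, from 308, 724 and 740 estimated counts. All Lung and Skin libraries had 0 counts, and the 3 BM libraries had 0, 1 and 1. In Spleen, replicate 2 had 11 counts (0.836 scaled) and the others 0, and in Intestine replicate 1 had 112 counts (12.0 scaled) against 0 and 2. Intestine replicate 1 was thus the highest library outside Blood. The mean in Blood, 64.3 ± 23.7, was 15.8-fold that in Intestine, 4.07 ± 6.84, at least 142-fold higher than in Lung and at least 84.0-fold higher than in Skin, taking 3 counts per library as the limit that 0 allows. Blood was 209-fold higher than Spleen, a ratio that rests on the 11 counts there, and no ratio is given to the 2 counts of BM. Such limits and intervals cover counting error only, since amplified reads are not independent molecules.

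The 4 libraries highest in Apol11b were also the 4 highest in erythroid transcripts. The summed scaled count of 10 erythroid markers was 2941, 8951 and 4784 in Blood and 2075 in Intestine replicate 1, and at most 652 in the other 14 libraries. Klf1, 1 of these markers, had 0 counts in all Blood libraries. Pearson r of Apol11b with that sum, both on the log2 scale, was 0.87 over 18 libraries and 0.58 over the 15 outside Blood. The latter rests largely on Intestine replicate 1 (12.0 scaled counts of Apol11b), since every other library outside Blood had at most 0.836. Among the genes most like Apol11b were Gm26992 (r = 0.91) and Alas2 (0.90), and Alas2 is on the erythroid marker list. The part of erythroid RNA in the Apol11b values was not tested. Of the 61-base stretches of its transcripts, matching the read length, 11.1% also occur in other genes, 7.22% in Apol11a. Apol11a had 0 counts in every library except Intestine replicate 2, which had 1. Among the 6 other tested APOL genes 0 were higher in Blood than the mean of the other 5 tissues and 1 was lower, Apol7c, which had 0 counts in Blood and averaged 89.5 ± 48.4 in Intestine. Over all tested genes 5.21% were called in that comparison. Without the Intestine libraries 0 of the 4 APOL genes still tested by limma were called, against 149 of 15201 tested genes.

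**Figure D2:**
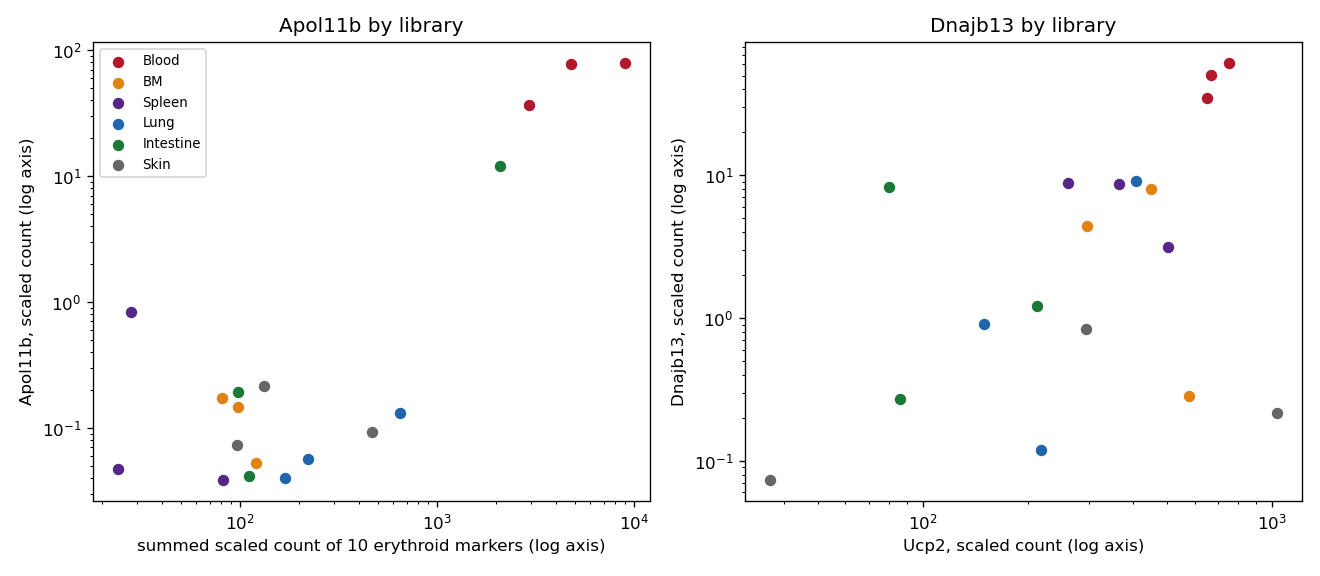
Scaled counts of Apol11b against the sum of 10 erythroid markers (left) and of Dnajb13 against Ucp2 (right) in each of the 18 libraries, all axes log. The 3 Blood libraries and Intestine replicate 1 have both the highest erythroid sums and the highest Apol11b, while Dnajb13 varies widely at a given Ucp2 level.

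Dnajb13 and Tgm1 had the highest correlation of any pair outside Blood (Pearson r = 0.68 over 15 libraries), from few counts. Within Blood they differed, replicate 3 being the highest for Dnajb13 and the lowest for Tgm1. Dnajb13 (ENSMUSG00000030708, chr7:100501716-100514960, 9 merged exons) had 50.2, 34.8 and 61.1 scaled counts in Blood. It had 4.44, 0.286 and 8.07 in the BM libraries, and Spleen had 8.77, 8.69 and 3.17. Lung had 0.915, 0.119 and 9.08, Intestine 1.22, 8.26 and 0.269, and Skin 0, 0 and 4 estimated counts. No library outside Blood passed 9.08, reached in Lung replicate 3. The mean was 48.7 ± 13.2 in Blood and 6.88 ± 3.21 in Spleen, a 7.08-fold ratio, and Blood was 11.4-fold higher than BM, 14.4-fold higher than Lung and 15-fold higher than Intestine, with no ratio given to the 4 counts of Skin. The F test outside Blood did not pass (adjusted p = 0.314), and it passed with a weight per library (adjusted p = 0.0319).

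Reads of Dnajb13 can overlap those of Ucp2, the mitochondrial carrier on the opposite strand. They share 305 exon bases, 11.2% of Dnajb13 exons, and strand use in counting is not given in the sources used here. Ucp2 averaged 690 ± 53.4 in Blood, 441 ± 142 in BM and 453 ± 516 in Skin. In Spleen it averaged 376 ± 123, in Lung 258 ± 133 and in Intestine 126 ± 74.3. Dnajb13 as a share of Ucp2 was 7.0 ± 1.47% in Blood, against 3.74 ± 5.70% in Intestine, 2.13 ± 1.39% in Spleen and 1.12 ± 0.934% in BM. In Lung it was 0.966 ± 1.13%. No share is given for Skin, where Dnajb13 had 0, 0 and 4 estimated counts and the floor set 2 of the 3 values. The highest share of any library was in Intestine replicate 2, at 10.3%. The part of Ucp2 reads in the Dnajb13 values was not tested. The 15 other tested radial spoke and DNAJB genes had 0 higher and 0 lower in Blood by limma, against 5.21% called over all tested genes. Their median log2 difference was 0.17, against -0.05 over all tested genes.

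Tgm1 (ENSMUSG00000022218, chr14:55700009-55713926, 17 merged exons) had 62.0, 55.1 and 27.9 scaled counts in Blood. It had 3.39, 0.0571 (0 counts) and 2.27 in the BM libraries, and Spleen had 7.54, 7.31 and 11.8. Lung had 2.48, 3.77 and 11.1, Intestine 0.160, 11.1 and 0.346, and Skin 4.34, 0.649 and 0.837. The lowest Blood library was above the highest other, Spleen replicate 3. The mean was 48.3 ± 18.1 in Blood and 8.87 ± 2.52 in Spleen, 5.45-fold apart, and Blood was 8.38-fold higher than Lung, 12.5-fold higher than Intestine, 24.9-fold higher than Skin and 25.4-fold higher than BM. The F test outside Blood did not pass (adjusted p = 0.288). Markers of keratinocytes and other epithelium summed to 5.66 to 89.1 in Blood and 1076 to 10543 in Skin, and r of Tgm1 with that sum was -0.22 over 18 libraries and -0.06 over the 15 outside Blood. Krt14, Krt10 and Krt20 had 0 counts in all Blood libraries. Of the 8 other tested transglutaminase and cornified envelope genes, 1 was higher in Blood, Epb42, the erythrocyte membrane protein (11.3 ± 6.10 in Blood, 0.456 to 3.96 as tissue means elsewhere), and 0 were lower, against 5.21% called over all tested genes, with a median log2 difference of -0.92. Tgm1 shares 182 exon bases, 5.76%, with the antisense gene Gm49067, which is not used here. Over the 18 libraries, Blood included, Gm5269 and Gm11634 were among the 3 genes most like both Dnajb13 (r = 0.91 and 0.93) and Tgm1 (0.89 and 0.84).

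Adam30 and Kirrel3 were low and uneven outside Blood. Adam30 (ENSMUSG00000043468, chr3:98160630-98164169, 2 merged exons) had 31.0, 34.6 and 23.4 scaled counts in Blood. In BM, replicate 2 had 19.7 (172 counts) and the other libraries 0 counts. Spleen had 0.580, 0.473 and 6.86, Lung 0.653, 0.0397 (0 counts) and 2.41, and all Intestine and Skin libraries 0 counts. A lone BM library thus came close to Blood. The mean was 29.7 ± 5.71 in Blood and 6.60 ± 11.4 in BM, a 4.49-fold ratio. Blood was 11.2-fold higher than Spleen, 28.6-fold higher than Lung, at least 111-fold higher than Intestine and at least 38.7-fold higher than Skin. The F test outside Blood did not pass (adjusted p = 0.545). Of 15 other tested ADAM genes, 1 was higher in Blood, Adam19, at 440 ± 70.0 in Blood and 88.5 to 259 as tissue means elsewhere (log2 difference 1.42 ± 0.42 SE, limma adjusted p = 0.0496), and 0 were lower, a share near the 5.21% called over all tested genes.

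Kirrel3 (ENSMUSG00000032036, chr9:34485894-35036716, 21 merged exons) had 117, 106 and 51.9 scaled counts in Blood. It had 9.76, 0.171 (1 count) and 22.1 in the BM libraries, and Spleen had 24.0, 24.8 and 20.0. Lung had 0.131 (0 counts), 8.13 and 0.618, Intestine had 7.93, 9.25 and 5.34, and the Skin libraries had 0, 0 and 1 counts. Spleen was even and second to Blood, and Skin was all but empty. The mean was 91.7 ± 34.9 in Blood and 22.9 ± 2.58 in Spleen, 4.0-fold apart, and Blood was 8.60-fold higher than BM, 12.2-fold higher than Intestine and 31.0-fold higher than Lung, with no ratio given to the 1 count of Skin. The genes most like it were Mrs2 (r = 0.90), Zfp947 (0.89) and Gstz1 (0.87).

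Cdh23 had its highest means in Blood, Spleen and BM, with overlap between libraries. Cdh23 (ENSMUSG00000012819, chr10:60302748-60696490, 75 merged exons) had 93.7, 45.3 and 62.2 scaled counts in Blood. It had 22.2, 35.8 and 32.2 in the BM libraries, and Spleen had 30.9, 35.5 and 66.9. Lung had 0.131 (0 counts), 5.12 and 1.29, Skin had 0.515, 0.216 (0 counts) and 28.9, and all Intestine libraries had 0 counts. Blood and Spleen overlapped, since Spleen replicate 3 lay above Blood replicates 2 and 3, and Skin replicate 3 lay above BM replicate 1. The mean was 67.1 ± 24.6 in Blood and 44.4 ± 19.6 in Spleen, a 1.51-fold ratio, while Blood was 2.23-fold higher than BM, 6.79-fold higher than Skin, 30.8-fold higher than Lung and at least 252-fold higher than Intestine. Cdh23 levels went with the neutrophil marker sum (r = 0.76 over 18 libraries and 0.72 over the 15 outside Blood), whose part was not tested. The genes most like it were Arap1 (r = 0.95), Gm49368 (0.93) and Kmt2d (0.92). Among the 12 other tested Usher and nephrin family genes 0 were higher in Blood and 1 lower, Map1b, a microtubule protein of neurons, at 1.85 ± 2.23 in Blood and 133 ± 78.6 in Intestine, against 5.21% called over all tested genes.

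Gpr27 was a BM gene in these libraries. Gpr27 (ENSMUSG00000072875, chr6:99692679-99695066, 1 exon) had 29.4, 14.4 and 23.5 scaled counts in Blood and 103, 113 and 176 in BM. In Spleen, replicate 1 had 1.97 (25 counts) and the others 0 counts. Lung had 0.653, 6.70 and 0.0561 (0 counts), Intestine 21.9, 15.6 and 12.0, and all Skin libraries 0 counts. Every BM library was above every Blood library, and Blood overlapped Intestine. The mean in Blood, 22.4 ± 7.53, was 0.172 of that in BM, 131 ± 39.9. It was 1.36-fold that in Intestine, 9.07-fold that in Lung, 32.7-fold that in Spleen and at least 29.3-fold higher than in Skin. The genes most like it were Adpgk (r = 0.83), Pld1 (0.82) and Dmwd (0.82), and Adpgk averaged 19.1 in Blood and 256 in BM. Of 14 other tested SREB and related orphan receptors 0 were higher and 0 lower in Blood by limma, against 5.21% called over all tested genes.

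Acod1 had its highest means in Skin and Lung. Acod1 (ENSMUSG00000022126, chr14:103046977-103056573, 5 exons) had 179, 206 and 122 scaled counts in Blood. It had 14.5, 22.0 and 31.1 in the BM libraries, and Spleen had 20.2, 15.4 and 17. Lung had 223, 464 and 648, Intestine 14.7, 35.6 and 63.5, and Skin 152, 2052 and 883. Every Lung library was above every Blood library, Skin overlapped Blood through replicate 1, and BM, Spleen and Intestine were all below Blood. The mean in Blood, 169 ± 42.7, was 0.164 of that in Skin, 1029 ± 959, and 0.380 of that in Lung, 445 ± 213. It was 4.46-fold that in Intestine, 7.51-fold that in BM and 9.65-fold that in Spleen.

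The genes most like Acod1 were Pim1 (r = 0.89), a kinase induced by cytokines, Nfkbiz (0.89), a nuclear regulator of NF-kB targets, and Pde4b (0.89), a phosphodiesterase, all of them higher in Lung and Skin than in Blood by their means. Of the 23 other tested inflammatory genes listed with Acod1, 0 were higher and 3 lower in Blood: Tnfaip3, an inhibitor of NF-kB signalling (51.9 ± 6.88 in Blood, 1960 ± 597 in Lung), Ptgs2, the inducible cyclooxygenase (79.9 ± 70.0 and 2617 ± 1282), and Il1a, a cytokine (0.309 ± 0.439 and 65.4 ± 28.6). Without the Skin libraries 3 were higher and 4 lower, and without the Intestine libraries 0 and 1. Of all tested genes, 2699 of 15747 passed without Skin and 149 of 15201 without Intestine. Of 22 other tested itaconate and Nrf2 genes, 0 were higher and 1 lower, Suclg2, a subunit of succinate-CoA ligase (1.68 ± 1.57 in Blood, 86.3 ± 113 in Skin), a share near the 5.21% over all tested genes. Monocyte and macrophage markers summed to 637 to 1055 in Blood, 1427 to 2229 in Lung and 1377 to 5697 in Skin, with 753 to 1121 in BM, 529 to 695 in Spleen and 1127 to 2075 in Intestine. Epithelial markers summed to 474 to 2695 in Lung, and r of Acod1 with their sum was 0.66 over 18 libraries and 0.75 over the 15 outside Blood. Within Lung the order was reversed, with epithelial sums of 2695, 1531 and 474 against 223, 464 and 648 for Acod1. Skin replicate 1 had the highest epithelial sum, 10543, and the lowest Acod1 of the Skin libraries. In Lung and in Skin, the neutrophil and the monocyte and macrophage sums ordered the libraries as Acod1 did. Endothelial markers summed to 28.5 to 45.2 in Blood, 623 to 2325 in Lung and 29.4 to 122 in Skin. The part of these cells in the Acod1 level was not tested.

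**Figure D3:**
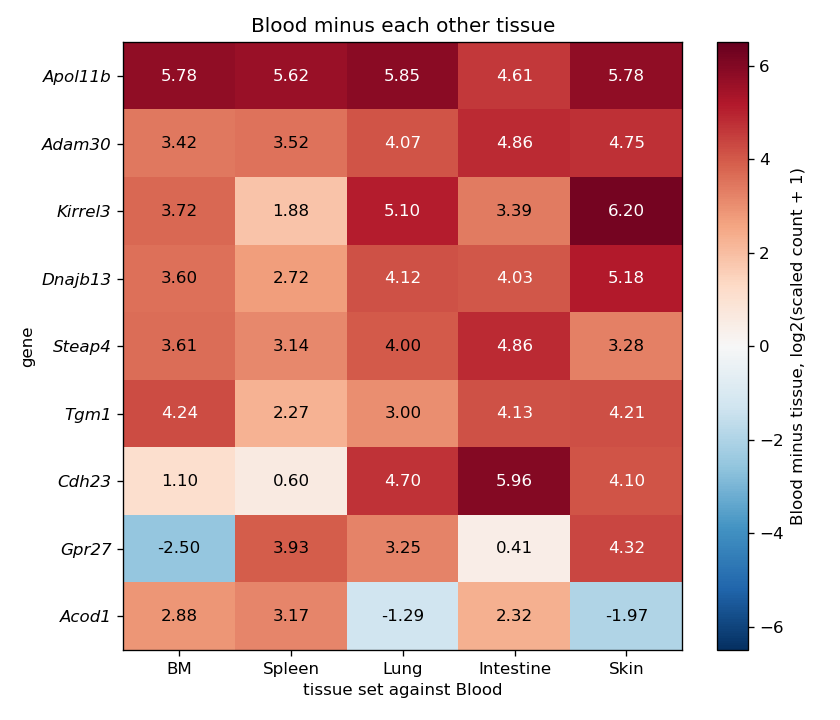
Fitted difference, Blood minus each other tissue, on the log2(scaled count + 1) scale, for the 9 genes (rows) and 5 tissues (columns), red being higher in Blood. Apol11b ranges from 4.61 to 5.85, while Gpr27 is -2.50 against BM and Acod1 is -1.97 against Skin and -1.29 against Lung.

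Tissue by tissue, all 3 Blood libraries were above all 3 of a tissue for 8 of the 9 genes in each case. The exception was Gpr27 against BM and against Intestine, Cdh23 against Spleen, and Acod1 against Lung and against Skin. Over the tested genes this held for 9.93% against BM, 15.7% against Spleen, 14.5% against Lung, 24.1% against Intestine and 17.7% against Skin, and since the genes were chosen on Blood nothing is read from the comparison. The fitted difference, Blood minus the mean of the other 5 tissues on the log2(value + 1) scale, was 5.53 ± 0.61 for Apol11b (SE), 4.12 ± 0.74 for Adam30, 4.06 ± 0.76 for Kirrel3, 3.93 ± 0.76 for Dnajb13, 3.78 ± 0.62 for Steap4, 3.57 ± 0.74 for Tgm1, 3.29 ± 0.77 for Cdh23, 1.88 ± 0.64 for Gpr27 and 1.02 ± 0.56 for Acod1. The added 1 understates the differences of low genes: that of Apol11b was 7.01 with 0.25 added and 3.57 with 5 added.

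Among the 5 tissues other than Blood, whose values did not choose the genes except through the contrast with Blood, 4 of the 9 genes differed by limma's F test, against 30.4% of tested genes. They were Gpr27 (adjusted p = 1.1e-05), Acod1 (1.52e-05), Cdh23 (0.000683) and Kirrel3 (0.0134). The F test did not pass for Tgm1, Dnajb13, Steap4 and Adam30 (values above). Apol11b passed the filter only through Blood, so its tests outside Blood, which did not pass, are not read. Each tissue was then set against the mean of the other 4 outside Blood, 45 gene-by-tissue tests in all with those of Apol11b, of which 12 passed. Of tested genes, 10.6% passed in BM, 19.7% in Intestine and 17.7% in Skin, and fewer in Spleen (4.41%) and Lung (2.49%).

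Gpr27 was higher in BM by 5.48 ± 0.65 log2 units (limma adjusted p = 2.52e-05), and lower in Skin (-3.05 ± 0.65, adjusted p = 0.00322 by limma) and in Spleen (-2.56 ± 0.65, adjusted p = 0.0276). Acod1 was higher in Skin (3.74 ± 0.57, adjusted p = 0.000217) and Lung (2.89 ± 0.57, adjusted p = 0.00524), and lower in Spleen (-2.69 ± 0.57, adjusted p = 0.0102) and BM (-2.33 ± 0.57, adjusted p = 0.0133). Over the 15 libraries outside Blood, Gpr27 and Acod1 had a Pearson r of -0.51. Cdh23 was higher in Spleen (3.36 ± 0.78, adjusted p = 0.0181) and BM (2.74 ± 0.78, adjusted p = 0.0289), and lower in Intestine (-3.34 ± 0.78, adjusted p = 0.00385). Kirrel3 was higher in Spleen (2.73 ± 0.77, adjusted p = 0.0465) and lower in Skin (-2.68 ± 0.77, adjusted p = 0.0204). B cell markers stood highest in Spleen, where they summed to 2021 to 3892, with 126 to 717 in BM, 255 to 906 in Lung, 168 to 290 in Intestine and 112 to 619 in Skin. Outside Blood, r with the epithelial marker sum was -0.61 for Kirrel3 and -0.58 for Gpr27, both lower in Skin. It was -0.74 for Cdh23, whose difference in Skin did not pass (-1.01 ± 0.78, limma adjusted p = 0.396). The part of B cells in the Spleen differences and of epithelium in the Skin differences was not tested.

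Several of these calls were lost when libraries were left out or weighted, though each difference kept its direction. Without the Intestine libraries 7 passed, and those of Cdh23 in BM (adjusted p = 0.183) and Spleen (0.138), of Gpr27 in Spleen (0.160) and of Kirrel3 in Spleen (0.0824) were lost. The Kirrel3 call in Spleen was lost in 18 of 29 alternatives. Leaving out any Spleen library ended every Spleen call (adjusted p = 0.0651 to 0.206), leaving out any BM library ended that of Cdh23 in BM (0.0724 to 0.143), and BM replicate 1 or 2 that of Acod1 in BM (0.0805 and 0.0739). Lung replicate 2 or 3 ended that of Acod1 in Lung (0.0663 and 0.0536). With a weight per library, Kirrel3 (0.273) and Gpr27 (0.184) no longer passed in Skin. Without Skin replicate 1, Steap4 passed the F test (0.0476).

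**Figure D4:**
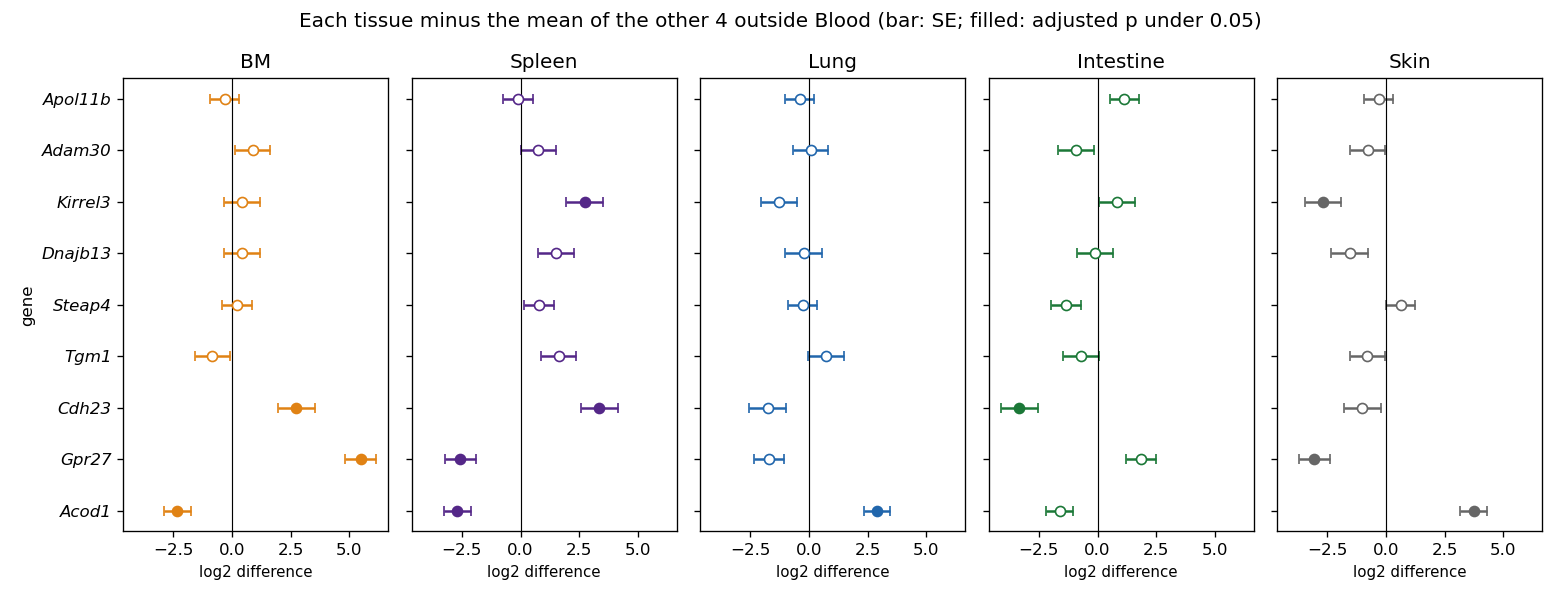
Difference of each tissue from the mean of the other 4 outside Blood, log2(scaled count + 1), for the 9 genes, where points are fitted differences, bars 1 SE, and filled points have a limma adjusted p under 0.05. Filled points lie in the rows of Kirrel3, Cdh23, Gpr27 and Acod1, and the other 5 genes have none.

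Correlations among the 9 genes over all libraries were raised by their choice on Blood and are a description. Over 18 libraries the 36 pairs had a median Pearson r of 0.53 (range -0.43 to 0.86), with 18 pairs over 0.5. Over the 15 libraries outside Blood the median was 0.06 (range -0.69 to 0.68), with 3 pairs over 0.5 and 16 below 0. The pairs that stayed over 0.5 were Dnajb13 with Tgm1 (0.86 over 18, 0.68 over 15), Dnajb13 with Kirrel3 (0.80 and 0.62) and Steap4 with Cdh23 (0.65 and 0.54). Kirrel3 and Acod1 had the lowest value outside Blood, -0.69, and -0.37 over all libraries. These correlations share libraries and depth, and low genes have few counts outside Blood.

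**Figure D5:**
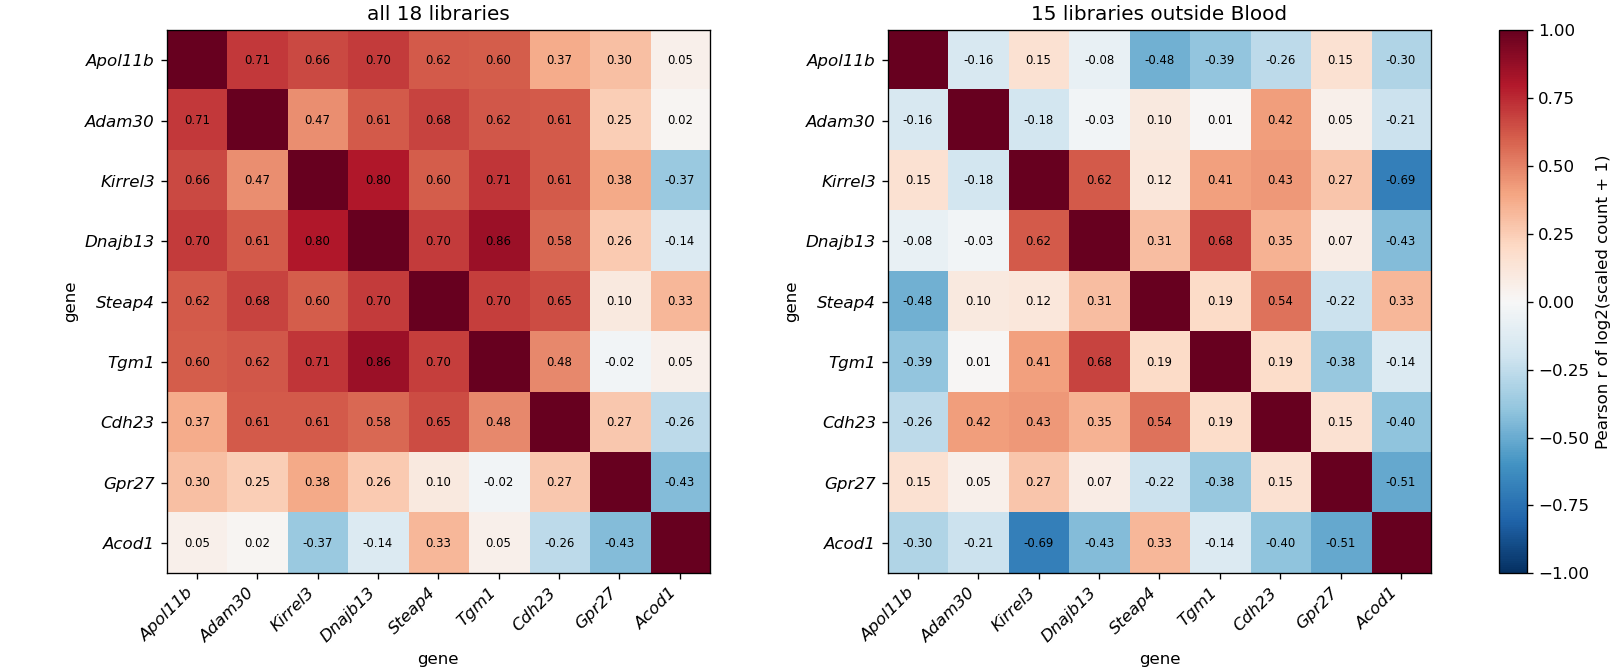
Pearson r between the 9 genes on the log2(scaled count + 1) scale, over all 18 libraries (left) and over the 15 outside Blood (right). The block of red among the first 7 genes at left is mostly absent at right, where 3 pairs exceed 0.5.

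Gene groups around these genes were set against Blood in the same fit, in which 5.21% of tested genes differed between Blood and the mean of the other 5 tissues. Neutrophil marker sums were lower in Spleen, Lung, Intestine and Skin than in Blood (values above), and their part in these differences was not tested. The groups were chosen with earlier results of these data known, so their counts and p-values are not independent support. Interferon-induced genes had the most calls, with 9 above and 1 below the other tissues among 29 tested, with a median log2 difference of 2.0 against -0.05 over all tested genes. Gbp2, a GTPase of cell defence, was 912 ± 513 in Blood and 51.6 to 122 as tissue means elsewhere (3.15 ± 0.44, limma adjusted p = 0.000229). Irgm1, also a GTPase, was 159 ± 58.4 in Blood and 20.9 to 44.1 elsewhere (2.41 ± 0.45, adjusted p = 0.00318). Without the Skin libraries 22 were higher and 2 lower, and without the Intestine libraries 4 and 0. The background moved too: 2699 of 15747 tested genes passed without Skin, in either direction, and 149 of 15201 without Intestine.

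IL-6 and STAT3 response genes, among which Steap4 is counted, had 6 above and 0 below among 19 others, with a median of 1.04. Ifitm1, an antiviral membrane protein and among the genes most like Steap4, was 1252 ± 621 in Blood and 33.3 to 205 elsewhere (3.52 ± 0.49, limma adjusted p = 0.000228). Its relative Ifitm3 was 1253 ± 500 and 183 to 376 (2.08 ± 0.38, adjusted p = 0.00289). Lcn2, the iron-sequestering lipocalin, passed as well (2.25 ± 0.44, adjusted p = 0.00535), with 1938 ± 605 in Blood and a higher mean, 4607 ± 1081, in BM. Without the Skin libraries 13 were higher, and without the Intestine libraries 2, against 2699 of 15747 and 149 of 15201 tested genes called. Reads shared between related Ifitm or Gbp genes were not measured.

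Genes of circulating and aged neutrophils had 4 above and 1 below among 26 tested, with a median of 1.03. The counts were 17 and 2 without the Skin libraries, where 2699 of 15747 tested genes passed. They were 1 and 0 without the Intestine libraries, where 149 of 15201 passed. Selplg, the ligand of P-selectin, was 1734 ± 134 in Blood and 111 to 929 elsewhere (1.93 ± 0.42, adjusted p = 0.0104), and Prok2, a secreted chemotactic factor, 49.9 ± 33.3 and 0.389 to 37.9 (3.56 ± 0.81, adjusted p = 0.0136). Of the 19 other tested metalloreductase and iron handling genes, 2 were above and 1 below, with a median of -0.35. Slc40a1, the iron exporter ferroportin, was 1704 ± 163 in Blood (2.20 ± 0.42, limma adjusted p = 0.00424). Spleen (1270 ± 202) and BM (1030 ± 233) were nearest, and the means of Lung, Intestine and Skin were 74.2 to 422. Lcn2 was the other higher gene, and the ferroxidase Heph, lower, had 0 counts in Blood and averaged 18.2 ± 1.80 in Skin. Without the Intestine libraries 0 genes of the iron, transglutaminase, ADAM, APOL, Usher and itaconate groups passed in limma. Only 149 of 15201 tested genes passed in that fit, so nothing is read from the 0.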

How the data were processed

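Per the labels' protocols, cDNA of sorted neutrophils was made with an Ovation Single Cell system and sequenced as 61-nt single-end reads. RSEM 1.3.1, CASAVA, limma and mm10 are named in the submitters' processing notes. The deposited values are a linear signal: from the values, an estimated count plus 0.5 over an effective library plus 1, per 1000000, although named TPM. The test planned for TPM was kept for them, limma 3.58.1 in R 4.3.3 on log2(value + 1) with 6 group means, all 18 libraries, 12 residual degrees of freedom and a trended prior. The 16157 genes with 3 or more libraries at 1 or above were tested, with Benjamini-Hochberg adjustment over all of them at 0.05. Counts were read back from the floor of each column, and 54.3 to 71.5% of values under 200 came out whole within 0.02, so no count test was run. GENCODE vM21 named 31820 of 32328 identifiers. Fewer counts mean coarser values: 1 count was worth 0.0727 to 0.433.

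The genes and lists were chosen with earlier results of these data known. Named are the 9 genes, the 3 protein-coding genes most like each by Pearson r, and from each list the 3, or fewer, passing genes of lowest adjusted p; some that this names are not reported here. Cell type markers came as 11 lists, of which those set beside a result are given. The fit was tested on simulated counts. Alternatives were other pseudocounts (0.25 and 5), filters and scalings, a weight per library, a replicate block, leaving out each library, and leaving out Skin or Intestine.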

Additional observations from a re-analysis of the deposited data

How the results depend on the processing

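None of the 9 Blood differences and none of the 12 passing gene-by-tissue differences changed direction under the alternatives run. The gene-by-tissue tests that did not pass were not checked for direction. The number of genes passing in Blood minus the others was 842, and 1317 with quantile normalization, 4574 with a weight per library, 2699 without the Skin libraries and 149 without the Intestine libraries (130 to 2160 leaving out 1 library at a time). In the same order, Spleen (713) gave 1402, 3637, 1845 and 168 (123 to 1486). With a weight per library and without Skin, BM (1705) gave 3645 and 3726, Lung (402) gave 1291 and 971, and Intestine (3184) gave 4890 and 5414, while Skin (2857) gave 197 with the weights. Without Intestine, BM gave 527, Lung 725 and the F test 2682 (4906 with all libraries). Leaving out 1 library gave 469 to 3214 for BM, 159 to 626 for Lung, 2022 to 4254 for Intestine, 2068 to 3723 for Skin and 4033 to 6221 for the F test. The count in Blood minus the others was 144, 130 and 300 without Blood replicates 1, 2 and 3, and 1340, 2160 and 1547 without Skin replicates 1, 2 and 3. Likewise, each BM or Spleen library lowered the count of its own tissue by over 1.5 times when left out, as did Lung replicates 1 and 2 and Intestine replicates 2 and 3; Skin replicate 2 raised those of BM and Spleen, Skin replicate 3 that of Spleen and Skin replicate 1 that of Lung. Of the 45 gene-by-tissue tests 12 passed, 8 to 15 leaving out 1 library and 7 without Intestine. Without a tissue, each contrast is against the mean of those remaining, and leaving out the Intestine libraries was chosen after seeing the data, as were the list counts without Skin. The causes were not tested. Other scalings moved the median of all genes by up to 0.34 (Skin, quantile) and -0.32 (Intestine, quantile), and Blood minus the others by 0.11 (quantile) and -0.14 (median ratio).

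Replicate numbers did not pair the libraries: correlations of the 45 same-numbered pairs ran from -0.06 to 0.106, 1 of them over 0.1, and 7 of 18 libraries were closest to their own number. With the replicate block 816 genes passed in Blood minus the others, 12 of the 45 tests passed, and the Kirrel3 call in Spleen was lost (adjusted p = 0.0654). Genes with few counts outside Blood limit every ratio there, since 1 count was worth up to 0.433 scaled counts (Skin replicate 2).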
